A study of Mus musculus with 9 samples.

Results

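The Ifit genes (interferon-induced proteins with tetratricopeptide repeats) are 6 genes here, Ifit1, Ifit1bl1, Ifit1bl2, Ifit2, Ifit3 and Ifit3b, out of 46603 gene identifiers in each count file. They were taken by symbol and matched to the Ensembl identifiers of the files through the GENCODE M21 annotation of the mouse genome build GRCm38. All 6 were found, and all 6 were among the 14176 genes with enough counts to be tested. RNA was sequenced from mouse embryonic fibroblasts (MEFs), cells of connective tissue grown from BALB/c embryos of day 10.5, and every group carried the knockout of Actb, the gene of β-actin. One group received poly(I:C), which stands in for viral double-stranded RNA, and another received poly(dA:dT), a double-stranded DNA mimic, both at 10 µg/ml. Both were delivered with Lipofectamine 2000 in Opti-MEM for 6 h, while mock cells received that transfection reagent and no nucleic acid. Each group held 3 libraries. Cells with intact Actb were not analysed here, and the labels do not say whether the knockout cells are 1 clone or several.

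IFIT proteins are cytoplasmic RNA-binding proteins that fibroblasts make in large amounts once viral nucleic acid or interferon is sensed. IFIT1 binds the 5′ end of RNAs whose cap lacks ribose methylation, a mark that cells place on their own mRNA and that many viral RNAs lack, and keeps them from being translated. IFIT2 and IFIT3 form complexes with IFIT1 or with each other, and in human cells IFIT3 stabilises IFIT1 and raises its affinity for such RNA. Ifit1bl1 and Ifit1bl2 are mouse relatives of Ifit1, and Ifit3b is a near copy of Ifit3. Their transcription is driven by the interferon regulatory factors IRF3 and IRF7, and by ISGF3, a complex that contains STAT2 and IRF9 and forms after interferon binds its receptor. These factors bind DNA elements whose core is a pair of GAAA blocks.

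The 6 genes lay side by side on chromosome 19 (chr19:34550694-34650009, GRCm38), a span of 99.3 kb. In order along the chromosome they were Ifit2 (34550694 to 34576419, plus strand), Ifit3 (34583531 to 34588731, plus strand), Ifit1bl1 (34592891 to 34601956, minus strand), Ifit3b (34607970 to 34613401, plus strand), Ifit1bl2 (34617049 to 34640743, minus strand) and Ifit1 (34640871 to 34650009, plus strand). Ifit1 and Ifit1bl2 start back to back, with 127 bases between their annotated starts. The exons of none of the 6 overlapped an exon of another annotated gene. The promoters are shown because the members responded together and by unequal amounts. RefSeq promoter windows (GRCm38.p6, 250 bases before to 50 after a start) were found for all 6 members, 9 windows in all. They were searched on both strands for GAAA, any 2 bases and GAAA again, and matches are in capitals, reading TTTC, any 2 bases and TTTC where they lie on the opposite strand. All 127 bases between Ifit1 and Ifit1bl2 are given on the strand of Ifit1, and the other stretches are the 250 bases before the RefSeq start on each gene's own strand.
Ifit1 and Ifit1bl2, chr19:34640744-34640870, plus strand: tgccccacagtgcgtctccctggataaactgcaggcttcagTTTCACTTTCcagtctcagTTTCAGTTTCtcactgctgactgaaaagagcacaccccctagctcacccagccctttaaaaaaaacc
Ifit3, chr19:34583279-34583528, plus strand: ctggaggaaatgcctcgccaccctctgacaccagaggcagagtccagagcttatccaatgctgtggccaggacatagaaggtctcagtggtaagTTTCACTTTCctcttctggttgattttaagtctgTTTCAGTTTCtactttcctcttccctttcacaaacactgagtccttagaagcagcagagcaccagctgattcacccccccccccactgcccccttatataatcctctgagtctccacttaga
Ifit3b, chr19:34607707-34607956, plus strand: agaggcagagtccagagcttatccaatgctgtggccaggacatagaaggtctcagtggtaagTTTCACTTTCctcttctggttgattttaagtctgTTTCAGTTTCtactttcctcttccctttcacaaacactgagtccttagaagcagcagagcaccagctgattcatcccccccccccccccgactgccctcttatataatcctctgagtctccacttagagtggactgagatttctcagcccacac
Ifit1bl1, chr19:34601969-34602218, minus strand: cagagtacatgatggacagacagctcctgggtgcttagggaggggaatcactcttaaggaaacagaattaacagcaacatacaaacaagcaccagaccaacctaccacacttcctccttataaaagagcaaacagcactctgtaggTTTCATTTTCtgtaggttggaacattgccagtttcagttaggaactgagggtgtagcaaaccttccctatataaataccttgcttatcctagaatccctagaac
Ifit2, chr19:34550444-34550693, plus strand: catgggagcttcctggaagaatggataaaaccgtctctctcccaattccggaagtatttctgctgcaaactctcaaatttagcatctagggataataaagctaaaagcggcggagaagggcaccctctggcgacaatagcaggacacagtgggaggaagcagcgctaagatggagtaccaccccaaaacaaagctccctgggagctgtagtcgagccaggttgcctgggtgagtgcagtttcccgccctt
The stretch between Ifit1 and Ifit1bl2 held 2 matches, at positions -104 to -95 and -85 to -76 from the RefSeq start of Ifit1. The windows of both genes contain these same 2 matches. A second RefSeq start of Ifit1bl2 had none. Ifit3 and Ifit3b held 2 matches each, and where their promoter stretches aligned, 217 of 218 bases were equal (99.5%), with 6 further bases in gaps. Ifit1bl1 held 1 match at each of its 2 RefSeq starts. Neither window of Ifit2 held a match. The sequence TATAAA, also searched on both strands, occurred in both windows of Ifit1bl1 and at the second start of Ifit1bl2, and in 13.6% of all windows. Among all 32851 mouse promoter windows of this length, 3.44% held the pattern at least once and 0.225% held it 2 or more times. A match describes letters and is not a measured binding site.

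The windows of Ifit2 lie at the far upstream end of its annotation. GENCODE M21 places the exon that holds its start codon at 34570219 to 34570370, 19.5 kb after its first annotated base, and the sequence before that exon was not searched. The counts of Ifit2 therefore sum over all transcripts of its 4 exon blocks, wherever they start, and a count table cannot separate them.

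The question of the design is which genes change after each mimic in cells without β-actin. All 6 Ifit genes were called higher after poly(I:C) than in mock cells, all 6 after poly(dA:dT) than in mock cells, and all 6 after poly(I:C) than after poly(dA:dT), and in no comparison did the libraries of the groups overlap for any member. A gene is called where the adjusted p of edgeR's quasi-likelihood test is below 0.05. Of all genes tested, 39.8%, 26.6% and 31.3% were called higher in these 3 comparisons, and 40.3%, 29.1% and 32.9% lay higher with no overlap. At least 2-fold and called higher were 6, 5 and 6 members, against 13.1%, 3.84% and 7.62% of all genes. The median log2 fold change of the members was 7.36, 3.38 and 3.37, beside 0.04, 0.01 and 0 over all genes. Scaling by total counts in place of TMM changed the balance most after poly(dA:dT), with 5004 genes called higher and 2389 lower in place of 3769 and 3721. In poly(I:C) against mock they were 6693 and 4072 in place of 5647 and 5140, and between the mimics 4978 and 3978 in place of 4434 and 4547. Total-count scaling left the 6 member calls as they were. It also moved the median of all genes by 0.11 on the log2 scale in poly(I:C) against mock, so smaller changes than this depend on the scaling. Both mimics are compared with the same mock libraries, so their folds against mock are not independent of each other.

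**Figure D1:**
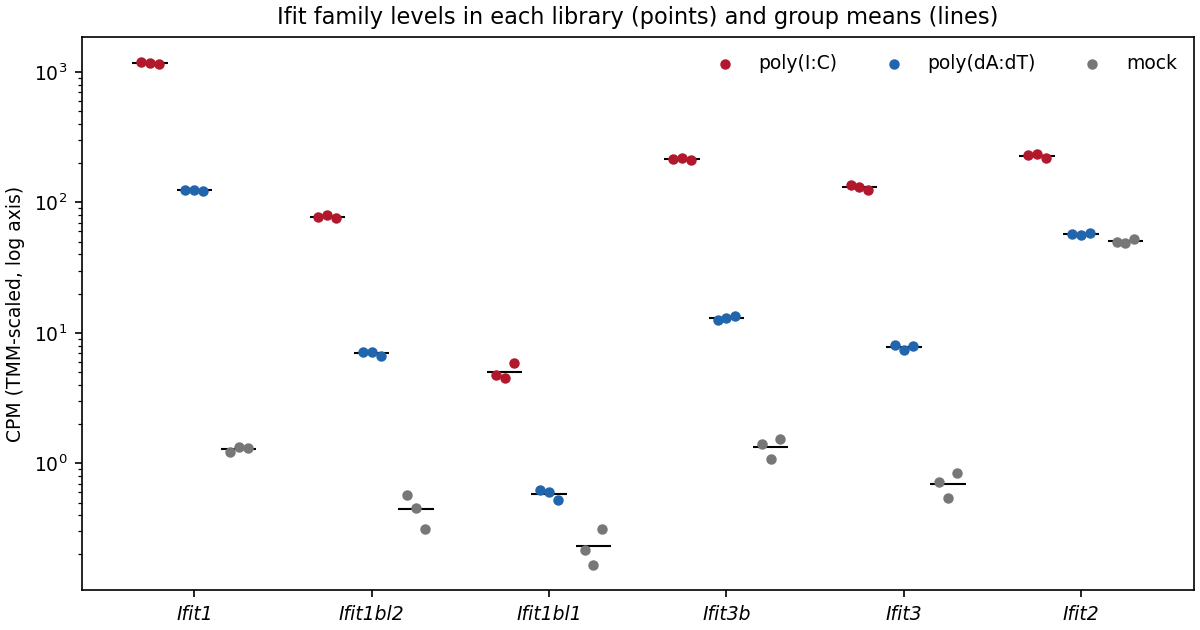
Level of each Ifit gene in each library, in CPM (counts relative to the TMM-scaled library size, log axis), with points for the 3 libraries of poly(I:C), poly(dA:dT) and mock cells and a line at the group mean. Ifit1 spans the widest range, with means of 1176, 124 and 1.29 CPM, while the poly(dA:dT) and mock points of Ifit2 lie close together, at means of 57.4 and 50.6 CPM.

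Summed over the family, the level in CPM, counts relative to library size, was 1834 ± 41.7 CPM after poly(I:C), 209.5 ± 0.23 CPM after poly(dA:dT) and 54.6 ± 2.08 CPM in mock cells (SD, n = 3). These are 0.19%, 0.0211% and 0.00523% of all counts assigned to genes, or 1 assigned read in 527, in 4739 and in 19129. RNA from a whole culture cannot tell apart more cells expressing a gene and more RNA per cell.

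Ifit1, which encodes the cap-sensing member, had the highest level of the family in both stimulated groups. It had 24685, 27457 and 19134 counts in the poly(I:C) libraries, 2588, 2910 and 2827 in the poly(dA:dT) libraries, and 34, 32 and 25 in the mock libraries. In CPM these were 1197, 1183 and 1148 after poly(I:C), 124, 124 and 123 after poly(dA:dT), and 1.22, 1.33 and 1.32 in mock cells. The 3 groups stood far apart, and libraries within a group lay close together. Against mock, Ifit1 was 914-fold higher after poly(I:C) (95% interval 859 to 972, log2 fold change 9.84 ± 0.05, SE, adjusted p = 6.12e-190, edgeR). After poly(dA:dT) it was 96.2-fold higher than in mock (88.3 to 105, log2 6.59 ± 0.06, adjusted p = 9.49e-142, edgeR). It stood 9.5-fold higher after poly(I:C) than after poly(dA:dT) (9.21 to 9.81, adjusted p = 7.79e-161, edgeR).

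Ifit1bl2, the neighbour that starts back to back with Ifit1, was also higher, at far fewer reads. It had 1608, 1853 and 1265 counts after poly(I:C), 148, 167 and 153 after poly(dA:dT), and 16, 11 and 6 in mock cells. Its mean level was 77.9 ± 1.98 CPM after poly(I:C), 6.96 ± 0.269 CPM after poly(dA:dT) and 0.448 ± 0.129 CPM in mock cells. The groups did not overlap, and the mock libraries differed more among themselves, relative to their level, than the stimulated ones. The rise over mock was 166-fold after poly(I:C) (143 to 193, adjusted p = 5.69e-114, edgeR) and 14.8-fold after poly(dA:dT) (11.5 to 19.1, adjusted p = 9.58e-45, edgeR). Poly(I:C) exceeded poly(dA:dT) 11.2-fold (10.2 to 12.3, adjusted p = 6.11e-97, edgeR).

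Ifit1 and Ifit1bl2 share the stretch between their annotated starts, and the ratio of their counts differed between the groups. Ifit1bl2 also has a second RefSeq start outside this stretch, and gene counts cannot separate transcripts by their start. Ifit1 had 14.8 to 15.4 counts per count of Ifit1bl2 in the poly(I:C) libraries, 17.4 to 18.5 in the poly(dA:dT) libraries and 2.12 to 4.17 in the mock libraries. The ratio in mock cells, where Ifit1bl2 had 33 counts over the 3 libraries, lay below both stimulated groups in every library. Each of the 3 differences gave p = 0.1 in a two-sided exact permutation test over 3 against 3 libraries, the smallest p this design allows (adjusted p = 0.115 over 15 ratio comparisons).

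Ifit1bl1 had the lowest mean level of the members in every group. It had 98, 104 and 98 counts after poly(I:C), 13, 14 and 12 after poly(dA:dT), and 6, 4 and 6 in mock cells, or 5.04 ± 0.742, 0.581 ± 0.0528 and 0.232 ± 0.0763 CPM. The poly(dA:dT) and mock libraries were separate, at 0.522 to 0.623 CPM against 0.166 to 0.316 CPM, though the mock counts lay just above the 3 counts that a count of 0 allows (0.107 to 0.18 CPM across libraries). Its rise over mock was 21.6-fold after poly(I:C) (14.6 to 32.1, adjusted p = 6.46e-32, edgeR) and 2.53-fold after poly(dA:dT) (1.39 to 4.62, adjusted p = 0.00676, edgeR). Poly(I:C) exceeded poly(dA:dT) 8.53-fold (6.13 to 11.9, adjusted p = 1.14e-24, edgeR).

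Ifit1bl1 and Ifit1bl2 resemble Ifit1, so a small part of the abundant Ifit1 reads could be counted for them. Their coding sequences were equal to that of Ifit1 at 81.1% and 80.7% of aligned bases, and to each other at 89.8%. Of all stretches of 50 bases in its longest transcript, 6.6% in Ifit1bl1 and 9.34% in Ifit1bl2 also occurred in another gene, in each case another member. At 100 bases these shares were 0.524% and 2.91%. Ifit1 had 195 to 264 counts per count of Ifit1bl1 after poly(I:C) and 199 to 236 after poly(dA:dT), ranges that overlap, against 4.17 to 8 in mock cells. Neither the read length nor the rule for multi-mapping reads is given in the sources used here. The part of shared reads in the values of Ifit1bl1 was not tested.

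Ifit3, whose human counterpart stabilises IFIT1, and its near copy Ifit3b followed each other closely. Whether the mouse proteins do so was not measured here. Ifit3 had 2818, 3035 and 2090 counts after poly(I:C), 168, 172 and 183 after poly(dA:dT), and 20, 13 and 16 in mock cells. Its mean level was 131 ± 5.62 CPM after poly(I:C), 7.79 ± 0.376 CPM after poly(dA:dT) and 0.699 ± 0.152 CPM in mock cells. The 3 groups were again well apart. Ifit3 was 188-fold above mock after poly(I:C) (167 to 212, adjusted p = 8.43e-130, edgeR), 11.2-fold above mock after poly(dA:dT) (8.96 to 14, adjusted p = 1.19e-45, edgeR), and 16.8-fold higher after poly(I:C) than after poly(dA:dT) (15.6 to 18.2, adjusted p = 5.97e-117, edgeR).

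Ifit3b had 4408, 5111 and 3525 counts after poly(I:C), 262, 304 and 309 after poly(dA:dT), and 39, 26 and 29 in mock cells. Its mean level was 215 ± 4.55 CPM after poly(I:C), 13 ± 0.442 CPM after poly(dA:dT) and 1.33 ± 0.23 CPM in mock cells. Every library of each group lay above every library of the next lower group. It was 162-fold above mock after poly(I:C) (148 to 178, adjusted p = 6.92e-145, edgeR), 9.79-fold above mock after poly(dA:dT) (8.3 to 11.5, adjusted p = 2.15e-58, edgeR), and 16.5-fold higher after poly(I:C) than after poly(dA:dT) (15.5 to 17.6, adjusted p = 1.42e-131, edgeR).

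The separate values of Ifit3 and Ifit3b are uncertain, because reads from the near copies can be exchanged in counting. Their coding sequences were equal at 1198 of 1209 bases (99.1%). Of the 50-base stretches, 51.2% in Ifit3 and 45% in Ifit3b also occurred in another gene, and of the 100-base stretches 31.7% and 27.4%. Ifit3b had 1.56 to 1.69 counts per count of Ifit3 after poly(I:C), 1.56 to 1.77 after poly(dA:dT) and 1.81 to 2 in mock cells. The poly(I:C) and poly(dA:dT) ranges overlapped (exact permutation p = 0.8, two-sided), and both lay below the mock range (exact permutation p = 0.1 each, the smallest possible). With their counts summed into 1 gene, the log2 fold change was 7.42 ± 0.06 for poly(I:C) against mock, 3.36 ± 0.1 for poly(dA:dT) against mock and 4.06 ± 0.04 for poly(I:C) against poly(dA:dT) (SE), so the rise of the pair does not rest on how reads were split.

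Ifit2, which joins the other IFIT proteins in complexes, differed from the rest of the family in its level in mock cells. It had 4811, 5428 and 3659 counts after poly(I:C), 1199, 1327 and 1331 after poly(dA:dT), and 1403, 1183 and 998 in mock cells. In CPM these were 233, 234 and 219.5 after poly(I:C), 57.5, 56.8 and 57.9 after poly(dA:dT), and 50.2, 49.1 and 52.5 in mock cells. The poly(dA:dT) libraries lay just above the mock libraries without overlap, and the poly(I:C) libraries lay far above both. Ifit2 was 4.54-fold above mock after poly(I:C) (4.33 to 4.75, adjusted p = 1.2e-111, edgeR) and 1.14-fold above mock after poly(dA:dT) (1.08 to 1.2, adjusted p = 3.28e-05, edgeR). Poly(I:C) exceeded poly(dA:dT) 4-fold (3.82 to 4.18, adjusted p = 1.26e-106, edgeR). No stretch of 50 bases of the longest Ifit2 transcript occurred in another annotated gene.

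**Figure D2:**
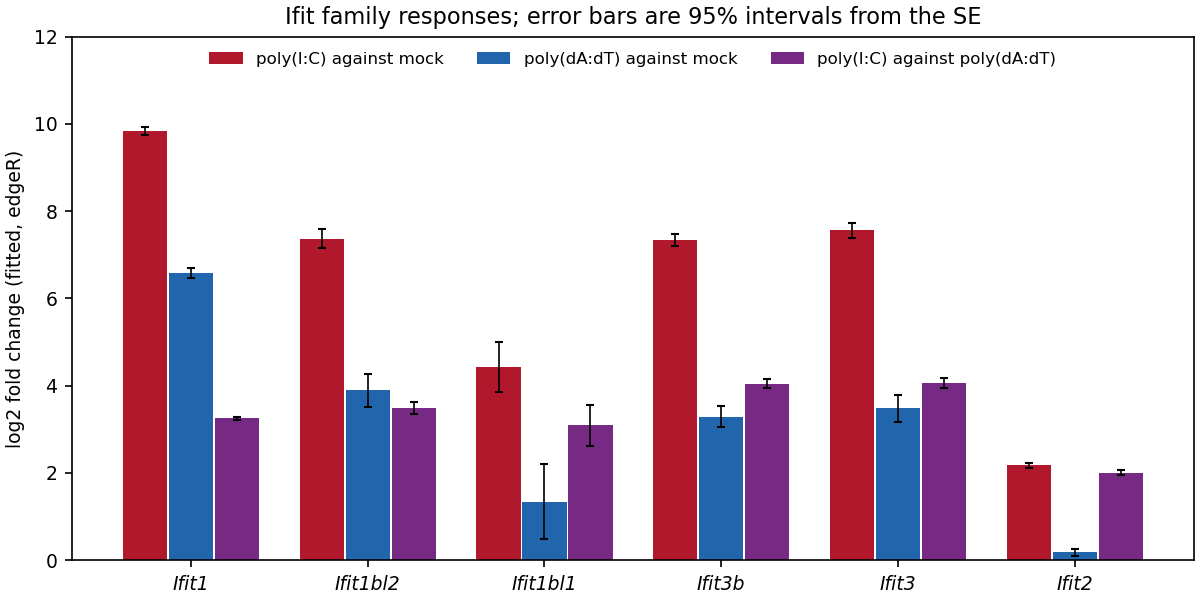
Fitted log2 fold change of each Ifit gene in 3 comparisons, with 95% intervals computed from the SE. The bars for poly(I:C) against mock run from 2.18 for Ifit2 to 9.84 for Ifit1, those for poly(dA:dT) against mock from 0.18 to 6.59 for the same genes, and those for poly(I:C) against poly(dA:dT) from 2 for Ifit2 to 4.07 for Ifit3.

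Because the mock level of Ifit2 was high, its fold and its absolute gain gave different pictures. After poly(dA:dT), Ifit2 gained 6.74 ± 1.05 CPM over mock, Ifit1bl2 gained 6.51 ± 0.172 CPM and Ifit3 gained 7.09 ± 0.234 CPM (difference of means ± SE), although their folds were 1.14, 14.8 and 11.2. After poly(I:C), the gain of Ifit2 was 178 ± 4.8 CPM, between those of Ifit3 (130.2 ± 3.25 CPM) and Ifit3b (214 ± 2.63 CPM). The gain of Ifit1 was 1175 ± 14.6 CPM after poly(I:C) and 123 ± 0.459 CPM after poly(dA:dT). The gain after poly(I:C) was 26.5 times that after poly(dA:dT) for Ifit2, 18.4 times for Ifit3, 18.3 times for Ifit3b, 13.8 times for Ifit1bl1, 11.9 times for Ifit1bl2 and 9.59 times for Ifit1. These are quotients of means that share the mock libraries, and they were not tested. The log2 fold change of Ifit2 after poly(dA:dT) against mock ranged from 0.16 to 0.26 over the 17 alternative fits. Its gain of 6.74 CPM, the likeness of that gain to those of Ifit1bl2 and Ifit3, and its quotient therefore depend on the scaling and the fit.

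To set the members beside each other, CPM were divided by the kilobases of annotated exon. The length-scaled order after poly(I:C) was Ifit1 (443), Ifit3b (108), Ifit3 (75), Ifit2 (58.3), Ifit1bl2 (23.1) and Ifit1bl1 (2.23 CPM per kb), with no overlap between neighbours in the order. After poly(dA:dT) it was Ifit1 (46.6), Ifit2 (14.6), Ifit3b (6.5), Ifit3 (4.46), Ifit1bl2 (2.07) and Ifit1bl1 (0.257 CPM per kb), again without overlap. In mock cells Ifit2 led (12.9), followed by Ifit3b (0.667), Ifit1 (0.485), Ifit3 (0.401), Ifit1bl2 (0.133) and Ifit1bl1 (0.103 CPM per kb). In mock cells the libraries of Ifit1 and Ifit3 overlapped, as did those of Ifit1bl2 and Ifit1bl1.

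As a share of the length-scaled family sum, Ifit1 made up 62.4 ± 0.186% after poly(I:C), 62.6 ± 0.426% after poly(dA:dT) and 3.31 ± 0.222% in mock cells. Ifit2 made up 8.22 ± 0.117%, 19.6 ± 0.18% and 87.8 ± 0.948% in these groups. The resting family was thus mostly Ifit2 and both stimulated families mostly Ifit1. Ifit3 and Ifit3b together with their uncertain split held 10.6% and 15.2% after poly(I:C), 5.99% and 8.72% after poly(dA:dT), and 2.72% and 4.53% in mock cells. Between the 2 mimics, the shares of Ifit2, Ifit3, Ifit3b and Ifit1bl2 did not overlap (exact permutation p = 0.1 each, adjusted p = 0.112 over 18 comparisons), while those of Ifit1 (p = 0.8) and Ifit1bl1 (p = 0.5) did. The likeness of the Ifit1 shares rests on the length scaling, since by counts alone Ifit1 made up 64.1% after poly(I:C) and 59.1% after poly(dA:dT). The smallest p of the exact permutation test is 0.1, so no share difference could pass 0.05.

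**Figure D3:**
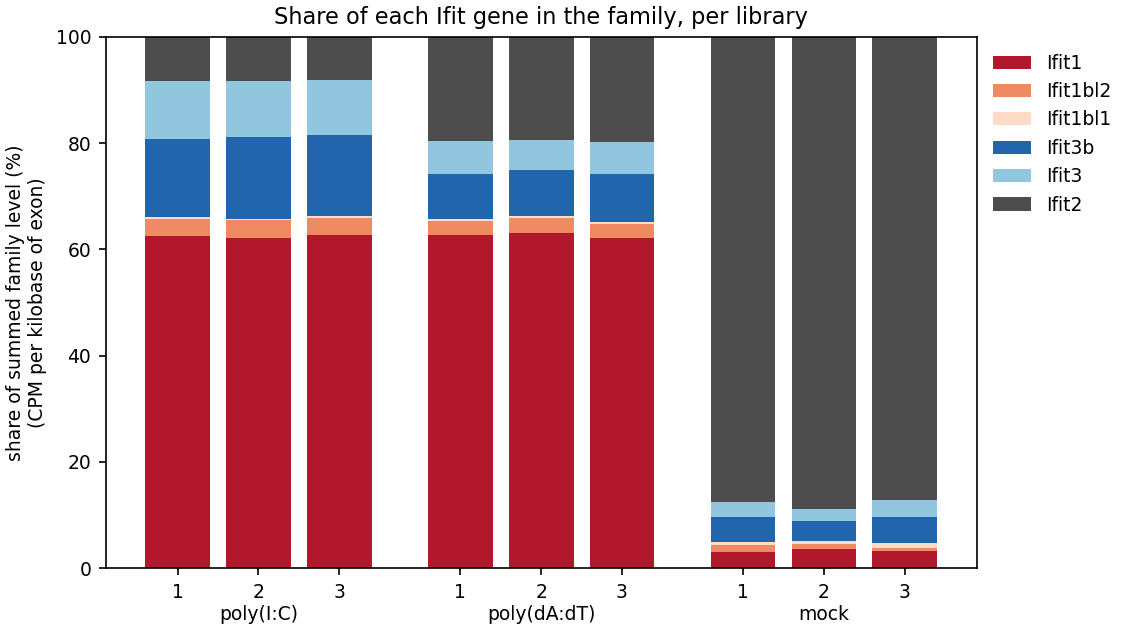
Share of each Ifit gene in the summed family level, in CPM per kilobase of exon, for each of the 9 libraries in groups of 3 (poly(I:C), poly(dA:dT), mock). Ifit2 fills most of each mock bar (mean 87.8%), and Ifit1 fills 62.4% and 62.6% on average of the poly(I:C) and poly(dA:dT) bars.

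The genes that sense the mimics and make interferon were also mostly higher. Of 15 genes of interferon induction, 13 were called higher and 0 lower after poly(I:C) against mock, 11 higher and 1 lower after poly(dA:dT) against mock, and 12 higher and 1 lower after poly(I:C) against poly(dA:dT), with median log2 fold changes of 3.21, 1.13 and 1.9. The shares of all genes called higher were 39.8%, 26.6% and 31.3%, and called lower 36.3%, 26.2% and 32.1%. Ifnb1, the gene of interferon β, stood at 88.2 ± 5.6 CPM after poly(I:C) and 4.86 ± 0.789 CPM after poly(dA:dT), with 1 count over the 3 mock libraries. Ifna4, an early interferon α gene, stood at 3.71 ± 0.769 and 0.213 ± 0.125 CPM, with 0 mock counts. Zbp1, a sensor of Z-form nucleic acid, stood at 6.79 ± 0.919 and 0.381 ± 0.137 CPM, with 3 mock counts. Over the poly(dA:dT) libraries Ifna4 had 14 counts and Zbp1 had 26, so both passed the count filter only through poly(I:C). That these genes were tested thus depended on the group where they were high, and the tally of this list is a description. Irf7, the inducible factor that sustains interferon transcription, averaged 89.2 ± 3.47 CPM after poly(I:C), 11.9 ± 0.312 CPM after poly(dA:dT) and 2.96 ± 0.606 CPM in mock cells, and was called higher in all 3 comparisons. Dhx58, a regulator of RNA sensing, averaged 73.7 ± 1.98, 7.56 ± 1.03 and 1.29 ± 0.0985 CPM in these groups and was likewise called in all 3. Irf3, the factor present before stimulation, averaged 28.6 ± 1.08 CPM after poly(I:C), 23.8 ± 1.42 CPM after poly(dA:dT) and 21.4 ± 0.509 CPM in mock cells. It was called higher after poly(I:C) than in mock (log2 0.41 ± 0.06, adjusted p = 4.52e-09, edgeR) and narrowly missed the threshold after poly(dA:dT) (log2 0.14 ± 0.06, adjusted p = 0.0519, edgeR), a call that 5 of the alternative fits made, with adjusted p between 0.00254 and 0.0452. Named after their values were seen, the gene called lower after poly(dA:dT) was Tbk1, the kinase of IRF3 (log2 -0.08 ± 0.04, adjusted p = 0.0462, edgeR), and that called lower between the mimics was Mavs, the adaptor of RNA sensing (log2 -0.14 ± 0.04, adjusted p = 0.00247, edgeR). The count of 1 lower gene after poly(dA:dT) was 0 without poly(dA:dT) replicate 2 or 3, or mock replicate 1 or 3, and the count of 0 after poly(I:C) was 1 without poly(I:C) replicate 1.

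Of 10 genes of the interferon receptor and ISGF3 pathway, 8 were called higher and 2 lower after poly(I:C) against mock, 6 higher and 1 lower after poly(dA:dT) against mock, and 8 higher and 1 lower after poly(I:C) against poly(dA:dT). Their median log2 fold changes were 1.33, 0.26 and 1.16. Over all genes, 39.8%, 26.6% and 31.3% were called higher in these comparisons, and 36.3%, 26.2% and 32.1% lower. Stat2, a subunit of ISGF3, averaged 410.2 ± 3.38 CPM after poly(I:C), 74.7 ± 2.68 CPM after poly(dA:dT) and 32.2 ± 1.24 CPM in mock cells. Irf9, its DNA-binding subunit, averaged 118 ± 2.34, 29.8 ± 1.13 and 10.3 ± 0.603 CPM in these groups. Stat2 and Irf9 were both detected in mock cells and were called higher in every comparison. Usp18, an inhibitor of receptor signalling, averaged 106 ± 1.72 CPM after poly(I:C), 6.06 ± 0.744 CPM after poly(dA:dT) and 0.793 ± 0.172 CPM in mock cells and was called higher in every comparison (poly(I:C) against mock log2 7.04 ± 0.09, adjusted p = 1.73e-122, edgeR). Of the receptor chains and kinases, Ifnar1 (log2 -0.08 ± 0.04, adjusted p = 0.0374, edgeR) and Jak1 (log2 -0.24 ± 0.02, adjusted p = 2.75e-17, edgeR) were the 2 called lower after poly(I:C) against mock. Jak1 was also the gene called lower in the other 2 comparisons. Ifnar1 and Jak1 were named after their values were seen. The count of 2 was 1 without poly(I:C) replicate 2, poly(I:C) replicate 3 or mock replicate 1.

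IFIT1 reads the cap, so the enzymes that build and remove it were listed too. Of 9 such genes, 6 were called higher and 1 lower after poly(I:C) against mock, 3 higher and 1 lower after poly(dA:dT) against mock, and 6 higher and 1 lower between the mimics, and the median log2 fold changes of 0.31, 0.01 and 0.18 were small. Over all genes the medians were 0.04, 0.01 and 0, with 39.8%, 26.6% and 31.3% called higher and 36.3%, 26.2% and 32.1% lower. After poly(dA:dT) the list thus lay near all genes. Cmtr1, which adds the first ribose methyl group of the cap, averaged 8.48 ± 0.83 CPM after poly(I:C), 6.48 ± 0.422 CPM after poly(dA:dT) and 5.9 ± 0.459 CPM in mock cells. It was called higher after poly(I:C) than in mock (log2 0.52 ± 0.12, adjusted p = 2.26e-05, edgeR), and after poly(dA:dT) it did not pass (log2 0.13 ± 0.12, adjusted p = 0.372, edgeR). Cmtr2, which methylates the next ribose, averaged 36.7 ± 2.51, 28.6 ± 1.84 and 24.6 ± 1.63 CPM in these groups and was called higher in all 3 comparisons, as was Dxo, a decapping exonuclease, at 42 ± 1.33, 31.2 ± 1.7 and 25.3 ± 2.01 CPM. Dcp2, the main decapping enzyme, averaged 77.6 ± 1.9 CPM after poly(I:C), 47.8 ± 2.55 CPM after poly(dA:dT) and 55.6 ± 0.388 CPM in mock cells. Dcp2 was called higher than mock after poly(I:C) and lower than mock after poly(dA:dT). The gene called lower in the other 2 comparisons, named after its values were seen, was Ramac, the cofactor of the cap guanine methyltransferase (poly(I:C) against mock log2 -0.41 ± 0.07, adjusted p = 8.5e-08, edgeR).

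The eIF3 complex, the translation initiation factor that IFIT proteins can bind, had more subunits called lower than higher. Of 14 subunit genes, 3 were called higher and 9 lower after poly(I:C) against mock, 2 higher and 7 lower after poly(dA:dT) against mock, and 2 higher and 8 lower between the mimics, with median log2 fold changes of -0.22, -0.09 and -0.14. Of all genes, 36.3%, 26.2% and 32.1% were called lower, and 39.8%, 26.6% and 31.3% higher. Eif3i averaged 198 ± 4.55 CPM after poly(I:C), 236 ± 5.2 CPM after poly(dA:dT) and 270.1 ± 3.3 CPM in mock cells (poly(I:C) against mock log2 -0.45 ± 0.03, adjusted p = 2.15e-38, edgeR). Eif3k (log2 -0.41), Eif3f (-0.34) and Eif3h (-0.33) were next by size in that comparison, and all 4 were called lower in all 3. The 3 subunits called higher there, named after their values were seen, were Eif3d (log2 0.28), Eif3a (0.1) and Eif3c (0.08). With total-count scaling, 4 in place of 7 subunits were called lower after poly(dA:dT).

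Around the cluster, calls went both ways. Of 11 protein-coding genes within 500 kb, 7 were tested, of which 3 were called higher and 4 lower after poly(I:C) against mock, and 3 higher and 3 lower after poly(dA:dT) against mock. Over all genes tested, 39.8% were called higher and 36.3% lower after poly(I:C), and 26.6% and 26.2% after poly(dA:dT). A mix of directions is thus not particular to this locus. Ch25h, an interferon-inducible enzyme that makes an antiviral oxysterol, averaged 44.7 ± 1.75 CPM after poly(I:C), 13.1 ± 0.553 CPM after poly(dA:dT) and 10.9 ± 0.763 CPM in mock cells. Its folds over mock, 4.09 after poly(I:C) and 1.2 after poly(dA:dT), were close to those of Ifit2. Lipa, the lysosomal lipase gene next to Ifit2, averaged 114 ± 1.21, 124 ± 2.31 and 150.3 ± 4.5 CPM in these groups and was called lower after both mimics. On the other side, Slc16a12, next to Ifit1, had too few counts to be tested, at 0.112, 0.029 and 0.0414 CPM. Stambpl1 and the death receptor gene Fas were called higher (1.41-fold and 1.32-fold after poly(I:C), 1.13-fold and 1.09-fold after poly(dA:dT)), and the poly(dA:dT) calls of both were lost without mock replicate 2 (adjusted p = 0.0675 and 0.11, edgeR), that of Stambpl1 also without poly(dA:dT) replicate 1 (adjusted p = 0.103) and that of Fas also in the DESeq2 Wald test (adjusted p = 0.0506). Acta2 (log2 -0.58) and the mitotic kinesin gene Kif20b (log2 -0.7) were called lower after poly(I:C) and also after poly(dA:dT), and Pank1 (log2 -0.42) only passed after poly(I:C), a difference between the mimics that was itself called (log2 -0.44 ± 0.07, adjusted p = 7.52e-09, edgeR).

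**Figure D4:**
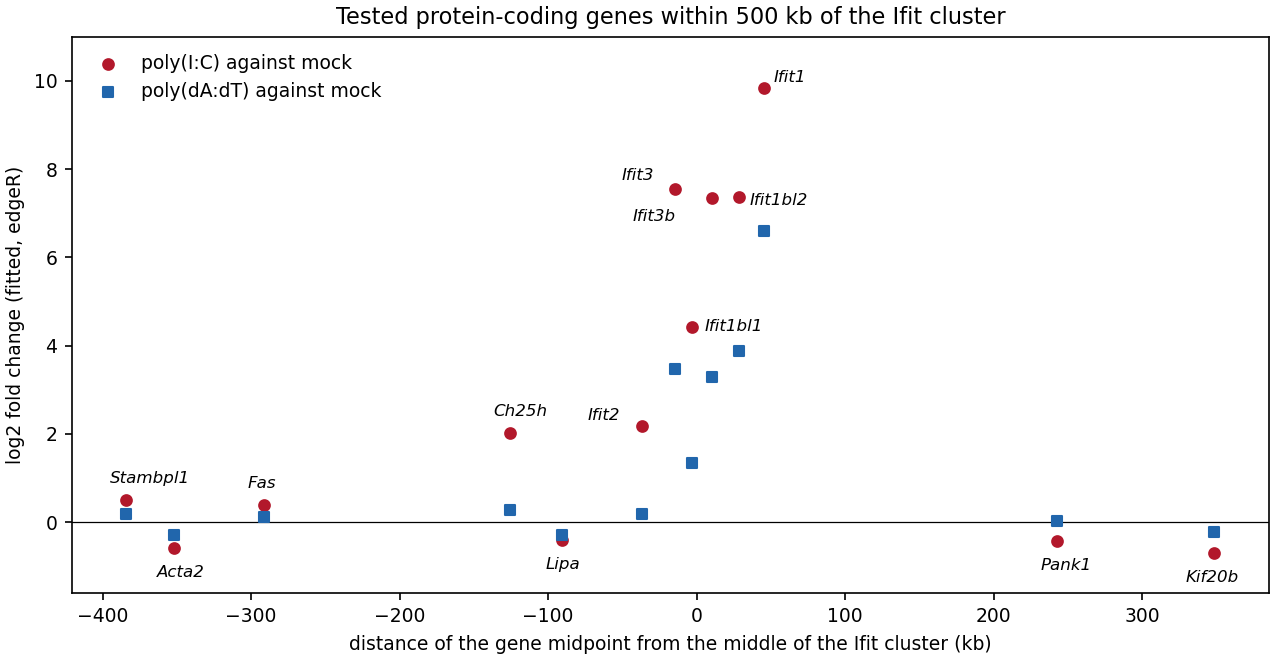
Fitted log2 fold change against mock of the 6 Ifit genes and the 7 tested protein-coding genes within 500 kb, by distance of the gene midpoint from the middle of the cluster, for poly(I:C) (circles) and poly(dA:dT) (squares). The Ifit points rise to 9.84 and 6.59 at Ifit1, and outside the cluster the highest point is Ch25h at 2.03.

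The genes whose responses lay nearest to a member were looked up among 6516 genes called in both comparisons against mock, by the distance between their pair of log2 fold changes and that of the member. Nearest to Ifit1 were Mx2 (distance 0.36), Ddx60 (0.41), Gbp5 (0.44), Gpr119 (0.57) and Oas2 (0.62). Mx2 and Gbp5 are interferon-inducible GTPases, Ddx60 a helicase and Oas2 a maker of the second messenger of RNase L. Of these 5, Gpr119 and Oas2 had 0 CPM in mock cells, so their fitted folds depend on the prior count. Nearest to Ifit3 were Cxcl9 (0.27), Oas1g (0.27), Cxcl2 (0.34), Ccl4 (0.41) and Oasl2 (0.44). The distances and order of the first 4 do not hold when a library is left out, since the log2 fold change after poly(I:C) against mock then ranged from 7.05 to 9.39 for Cxcl9, 7.15 to 9.49 for Oas1g, 7.19 to 8.83 for Cxcl2 and 7.25 to 9.46 for Ccl4, against 7.4 to 7.67 for Ifit3. Among the genes near Ifit1, Ddx60 likewise ranged from 9.42 to 10.4. Cxcl9, Oas1g and Ccl4 had at most 0.0138 CPM in mock cells, about 1 read, and Ccl4 was not called after poly(dA:dT) without poly(dA:dT) replicate 1 (adjusted p = 0.152, edgeR). Nearest to Ifit2 were Ifi202b (0.15), Tent5a (0.17), Glis3 (0.17), Ch25h (0.17) and Vcam1 (0.18), all present in mock cells at 8.38 to 84.4 CPM. After poly(dA:dT), the call of Ifi202b was lost without poly(dA:dT) replicate 1 (adjusted p = 0.0996), mock replicate 1 (0.0529) or mock replicate 2 (0.101, edgeR), and in the DESeq2 Wald test (0.087), and that of Tent5a without poly(dA:dT) replicate 3 (adjusted p = 0.077) or mock replicate 2 (adjusted p = 0.0847, edgeR). Distances are on the log2 scale over 2 comparisons that share the mock libraries and are a description.

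Assigned counts per library were 16082772 to 22382837 after poly(I:C), 20738109 to 23185293 after poly(dA:dT) and 19826550 to 29219797 in mock cells. Actb itself had 565 to 736, 657 to 716 and 658 to 924 counts in these groups and was not called in any comparison. For poly(dA:dT) against mock (log2 -0.12 ± 0.06, adjusted p = 0.0613, edgeR) a call of lower appeared once mock replicate 2 was left out (-0.15, adjusted p = 0.0453) and under DESeq2 size factors (-0.14, adjusted p = 0.029). How much of the gene the knockout removes is not given here. Summed over 12 fibroblast markers, the level was 6646 to 6955 CPM after poly(I:C), 7508 to 7640 CPM after poly(dA:dT) and 7819.8 to 7993 CPM in mock cells. Lum, with 1 count over the mock libraries and 0 in both stimulated groups, had too few counts to be tested. Of 11 tested, 9 were called lower and 1, Fn1, higher after each mimic against mock. Among all genes, 36.3% were called lower and 39.8% higher after poly(I:C), and 26.2% and 26.6% after poly(dA:dT). The 8 macrophage and leukocyte markers summed to 6.66 to 8.49, 8.48 to 8.81 and 10.5 to 11.3 CPM, with Ptprc at 0 throughout, and the 6 epithelial markers to 8.96 to 9.46, 8.74 to 9.68 and 9.13 to 10.5 CPM. Of 5 macrophage and leukocyte markers tested, 1 was called higher and 3 lower after poly(I:C) against mock, and 0 and 1 after poly(dA:dT). The gene called higher was Aif1 (13.2-fold, adjusted p = 3.65e-08, edgeR), with 4 mock counts. Of 3 epithelial markers tested, 2 were called higher (Cdh1 and Krt14) and 1 lower (Krt18) after poly(I:C), and none after poly(dA:dT). These genes were named after their values were seen. The 6 endothelial markers summed to 5.58 to 6.84, 3.7 to 4.88 and 1.95 to 2.62 CPM, so their sum was in the same order across the groups as the Ifit genes, at a far lower level, with Tie1 at 0 throughout and Cdh5 at 0 in mock cells. Of the 4 endothelial markers tested, 3 were called higher than mock after each mimic and 2 between the mimics, and Vwf was called in none (log2 -0.05 after poly(I:C) and -0.11 after poly(dA:dT) against mock). Tek and Tie1 had too few counts to be tested. Cdh5, with 0 mock counts and 14 over the poly(dA:dT) libraries, passed the count filter only through poly(I:C), at 1.03 CPM. Which markers were tested thus depended on the stimulated groups, and this tally is a description. The part of these markers in the Ifit values was not tested.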

How the data were processed

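Total RNA of 9 samples (3 groups of 3) was made into TruSeq v2 libraries, which do not mark the strand. The authors deposited raw read counts per Ensembl gene, and their processing notes, per the submitters, name TopHat2 2.1.0, HTSeq, DESeq2 and the build GRCm38.p4. Annotation release, read length and handling of multi-mapping reads: not given in the sources used here. Of 46603 identifiers, 46005 were found in GENCODE M21, and 0.0914% of the counts fell on the remaining 598. Groups were taken from the labels. Whether replicates were separate cultures is not stated, so the p-values rest on a spread between samples that may be technical.

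Genes were filtered with filterByExpr by group, and the counts were fitted with edgeR 4.0.16 (R 4.3.3; TMM, robust quasi-likelihood F test, two-sided) in 1 model of all 9 libraries with 6 residual degrees of freedom. P-values were adjusted by Benjamini-Hochberg over 14176 genes, with a threshold of 0.05. Fitted log2 fold changes used a prior count of 0.125, and the SE is the size of that change over the root of F. Values are means ± SD of 3 libraries. Lengths are merged M21 exons. Intervals, and the 3 counts that a 0 allows, cover counting or replicate error only, as reads carried no molecular identifiers and are not independent molecules. The procedure was tested on simulated data. Between replicates, chi-square per degree of freedom was 1.64 to 2.1, so no library was counted as a duplicate.

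Named genes are the 6 members, Actb, up to 4 called genes of each pathway list by size of change after poly(I:C) with Ifnb1, Irf3, Irf7, Irf9, Stat2 and Cmtr1 added, protein-coding neighbours within 500 kb, and the 5 genes nearest to Ifit1, Ifit2 and Ifit3 at a mean of at least 1 CPM. A further gene of this rule is not reported here. Members, lists and this rule were chosen with earlier results of these data known. Alternatives were other scalings and filters, the DESeq2 1.42.0 Wald test, fits of 2 groups, a replicate block and leaving out each library.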

Additional observations from a re-analysis of the deposited data

How the results depend on the processing

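All 18 member results (6 genes in 3 comparisons) kept their direction and stayed past the threshold in each of the 17 or 18 alternatives run. The 2 closest to the threshold were Ifit1bl1 and Ifit2 after poly(dA:dT) against mock, with log2 fold changes of 1.16 to 1.56 (largest adjusted p = 0.0371) and 0.16 to 0.26 (largest adjusted p = 0.00125). The share of Ifit1 was 5.03 percentage points higher after poly(I:C) than after poly(dA:dT) by counts alone, in place of -0.113 per length. The replicate numbers of the labels showed no detectable pairing of the samples. The 9 correlations of same-numbered deviations, each between libraries of 2 groups, lay between -0.0138 and 0.0225. In 3 of these 9 comparisons the library of the same number correlated best. With the replicate block, the 1 lower call of the interferon induction list after poly(dA:dT) became 0, and every member call held.

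With total counts, 2389 genes in place of 3721 and 4 eIF3 subunits in place of 7 were called lower after poly(dA:dT) against mock, and 0 ISGF3 pathway genes in place of 1 between the mimics. The 2 ISGF3 pathway genes called lower after poly(I:C) became 1 with upper-quartile factors, total counts and the filter of 50 counts, and ranged from 1 to 2 with a library left out. The induction genes called lower after poly(I:C), 0 in the report, became 1 with DESeq2 size factors, no filter and only the groups compared, and ranged from 0 to 1 with a library left out. The 1 induction gene called lower after poly(dA:dT) became 0 with upper-quartile factors, total counts, no filter, the filter of 50 and only the groups compared, and ranged from 0 to 1 with a library left out. Actb after poly(dA:dT) was called lower with DESeq2 size factors (-0.14). Actb after poly(I:C) changed sign with total counts (0.07) and reached 0 with the filter of 50, and Pank1 after poly(dA:dT) changed sign with the DESeq2 Wald test (0) and ranged from -0.01 to 0.06 with a library left out, none of them called. The causes were not tested. Depth limits Ifit1bl1 most, with 4 to 6 counts in each mock library.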
